A study of Mus musculus with 6 samples.

Results

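The genes described here encode enzymes of the pentose phosphate pathway, 2 further enzymes that make NADPH outside it, and a regulator. They are G6pdx, Pgls and Pgd of the oxidative branch, Rpia, Rpe, Tkt and Taldo1 of the non-oxidative branch, the NADPH producers Me1 and Idh1, and Tigar, which acts on the flow of sugar phosphate into the pathway. They were taken by gene symbol, and all 10 were among the 36706 genes of the deposited tables and among the 14011 genes with enough counts to be tested. The cells were wild-type mouse cells, labelled dendritic cells by type and BMDMs in the sample titles, grown from bone marrow with 20 ng/mL GM-CSF, a cytokine that drives marrow precursors towards dendritic cells and macrophages, with new medium on day 3 and day 5. In 3 libraries the cells had received interferon gamma (IFN-γ), and in the other 3 they had received IFN-γ together with 4-octyl itaconate (4-OI), an ester of the macrophage metabolite itaconate that enters cells. Every library thus came from cells given IFN-γ, and no library of cells without it was among those analysed. The labels give no dose or duration of either agent and no strain, age or number of animals, and they do not say that replicates came from separate cultures. The p-values below therefore measure the spread between these libraries, which may be technical.

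The pentose phosphate pathway begins with glucose 6-phosphate. Its oxidative branch reduces NADP+ to NADPH at the steps of glucose 6-phosphate dehydrogenase and 6-phosphogluconate dehydrogenase and ends in ribulose 5-phosphate, and its non-oxidative branch interconverts pentose phosphates with glycolytic intermediates through transketolase and transaldolase. NADPH feeds the glutathione and thioredoxin reductases, the phagocyte oxidase and the synthesis of lipids. Several genes of the pathway are known targets of NRF2, a transcription factor that KEAP1 holds in check and that electrophiles such as 4-OI release. NRF2 binds antioxidant response elements together with a small MAF protein.

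The core of that element, TGACNNNGC, was searched on both strands of the promoter windows that RefSeq gives for these genes on GRCm38.p6, each window running from 250 bases before to 50 after an annotated start. All 10 genes had at least 1 window, 13 in all, and the core was found in 3 of the windows, those of Me1, G6pdx and Pgd. Of 32851 windows of all genes, 12.4% held it. In Me1 the match TGACTCAGC lay across the first of 2 annotated starts, from base -6 to base 3. The window of the second Me1 start held none. The match contains the AP-1 motif TGACTCA, which was found in 5.20% of all windows. In G6pdx the match lay on the opposite strand, from base -57 to base -49, so that it reads GCTCAGTCA on the strand of the gene. In Pgd it lay after the second of 2 annotated starts, from base 4 to base 12, and the window of the first start held none. The stretches from 100 bases before to 24 after the start are shown for the 4 genes that the results below turn on, with the core in capitals. For Me1 and Pgd the first start is shown. Me1 and G6pdx hold the core in these stretches, and Pgd and Taldo1 do not.
Me1, chr9:86695891-86696014, minus strand: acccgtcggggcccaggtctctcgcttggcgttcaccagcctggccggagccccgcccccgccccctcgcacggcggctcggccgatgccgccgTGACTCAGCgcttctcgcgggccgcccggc
G6pdx, chrX:74428857-74428980, minus strand: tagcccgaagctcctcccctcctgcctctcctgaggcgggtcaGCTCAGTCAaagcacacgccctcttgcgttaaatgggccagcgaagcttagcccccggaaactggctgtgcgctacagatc
Pgd, chr4:149166682-149166805, minus strand: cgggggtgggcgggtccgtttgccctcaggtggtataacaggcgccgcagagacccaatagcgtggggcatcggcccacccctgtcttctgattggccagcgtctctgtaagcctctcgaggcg
Taldo1, chr7:141392060-141392183, plus strand: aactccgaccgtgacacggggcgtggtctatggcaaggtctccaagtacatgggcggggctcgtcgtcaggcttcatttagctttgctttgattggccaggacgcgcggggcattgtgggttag
A match is a run of letters and not a bound site, and a window without one says nothing on elements elsewhere.

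The libraries held 19656368 to 29244717 counts. At these totals, before the scaling described next, 3 counts correspond to 0.103 to 0.153 CPM, a limit that covers counting error only. CPM is the count of a gene relative to its library's total, here scaled by TMM factors, which correct that total for the make-up of each library. A mean ± SD is over the 3 libraries of a group. The first principal component, with 79.5% of the variance, separated the groups. On the second, IFN-γ replicate 1 scored 32.1 where the other IFN-γ libraries scored -19.1 and -16.8, and 4-OI replicate 3 scored -14.4 where the others scored 12.4 and 5.84. IFN-γ replicate 1 also carried collagen RNA, with Col1a1 at 10.1 CPM against 0.238 and 0.212 CPM in the other IFN-γ libraries. Where it matters, values are also given without this pair, the libraries that stood apart.

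With 4-OI, 7 of the 10 genes changed by edgeR's quasi-likelihood test at a Benjamini-Hochberg adjusted p of 0.05, against 48.1% of all tested genes. Of these, 6 rose (background 22.7%), namely Me1, Taldo1, Pgd, Idh1, G6pdx and Tkt, and 1 fell, Tigar (background 25.4%). Me1, Taldo1 and Pgd rose at least 2-fold, a size of rise reached by 6.38% of tested genes. Pgls, Rpia and Rpe did not pass. The 4 genes whose enzymes reduce NADP+ (G6pdx, Pgd, Me1 and Idh1) all rose, and their median log2 fold change was 1.24. Of the remaining 6 genes 2 rose and 1 fell, and the median was 0.09. The median over the 10 genes was 0.49 and that over all tested genes -0.01. With libraries scaled by total counts alone the median of all genes moved to -0.27, and the 5 genes other than Tkt still rose. The IFN-γ and 4-OI libraries did not overlap for 8 of the 10 genes, a separation found for 59.5% of tested genes. Without both libraries that stood apart, the same 6 genes rose and Rpe joined Tigar among those that fell. That fit also called more genes in general, 9296 of 14086 tested against 6736 of 14011. Of the 9296, 4601 were higher and 4695 lower.

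**Figure D1:**
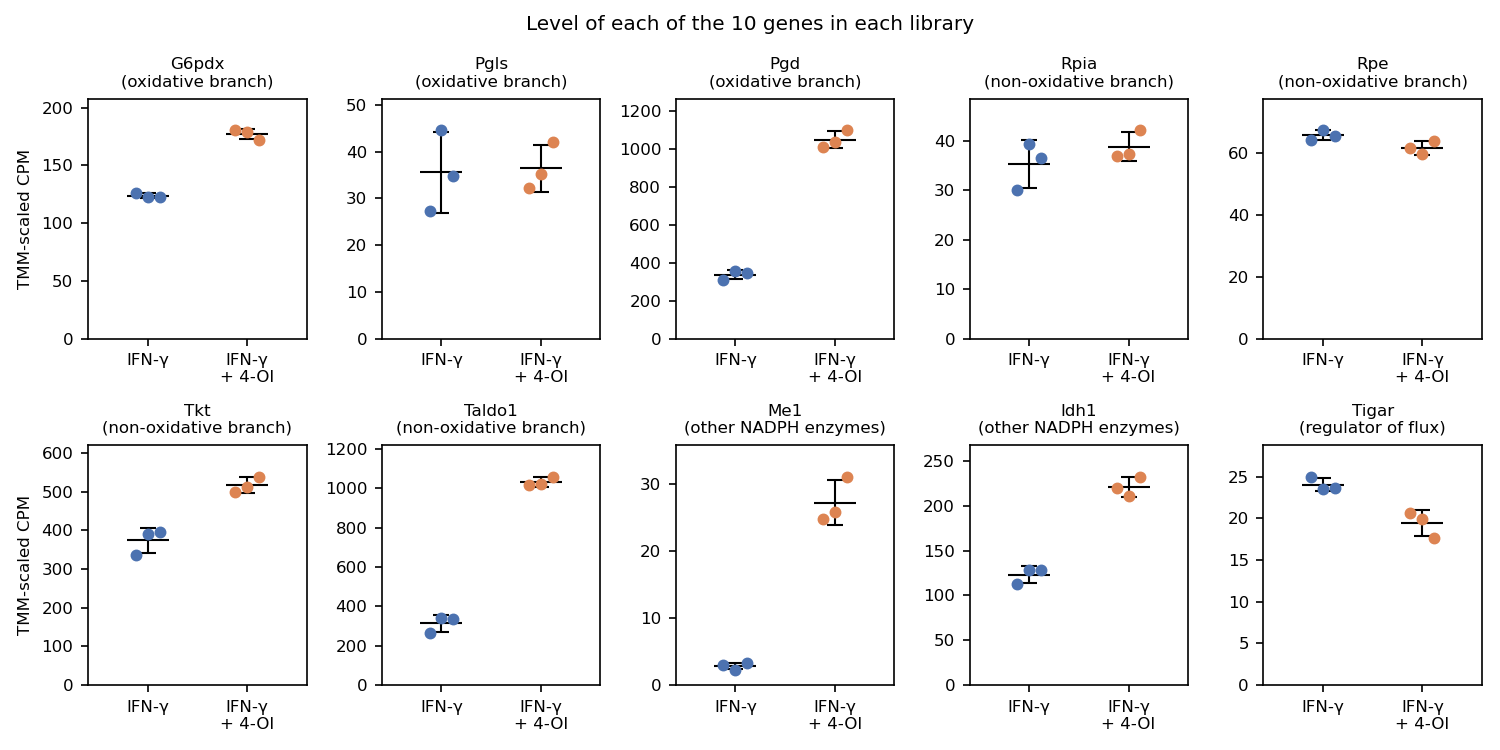
TMM-scaled CPM of each gene in each of the 6 libraries, with IFN-γ in blue and IFN-γ with 4-OI in orange; points are libraries, horizontal bars the means and error bars the SD (n = 3), and each axis starts at 0. Me1, Pgd and Taldo1 are separated most, and the groups overlap for Pgls and Rpia.

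In the oxidative branch the first and the third enzyme rose and the second did not pass. G6pdx encodes glucose 6-phosphate dehydrogenase, which commits glucose 6-phosphate to the pathway and makes the first NADPH. The gene spans 73453089 to 73472486 of chromosome X, minus strand, in the coordinates of the deposited tables. It stood at 126, 122.7 and 122 CPM in the IFN-γ libraries and at 180.5, 179 and 172 CPM with 4-OI. The 3 libraries with 4-OI all lay above the 3 without it, and the spread within each group was small. The rise was 1.43-fold, with a log2 fold change of 0.52 ± 0.07 (SE; edgeR adjusted p = 6.07e-04). G6pd2, its intronless relative, had 1 count over all 6 libraries. G6pdx shares 2.18% of its exon bases with Ikbkg on the opposite strand.

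Pgd encodes 6-phosphogluconate dehydrogenase, which makes the second NADPH of the branch and releases ribulose 5-phosphate. The locus is on chromosome 4, from 149234448 to 149251162, minus strand. Pgd stood at 308, 356 and 348 CPM with IFN-γ and at 1012, 1038 and 1100.1 CPM with 4-OI. The groups were far apart, and IFN-γ replicate 1 was the lowest of all. Pgd rose 3.11-fold, with a log2 fold change of 1.64 ± 0.10 (SE; edgeR adjusted p = 8.89e-06), and 2.83% of tested genes rose more. Without both libraries that stood apart its log2 fold change was 1.54.

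Pgls encodes 6-phosphogluconolactonase, which opens the lactone between those 2 steps. On chromosome 8 it covers 72044828 to 72048911, plus strand. Pgls stood at 27.2, 44.6 and 34.9 CPM with IFN-γ and at 32.2, 35.3 and 42.1 CPM with 4-OI, so the groups overlapped throughout. Its log2 fold change was 0.04 ± 0.18 (SE; edgeR adjusted p = 0.885), and it was -0.13 without IFN-γ replicate 1 and -0.22 with total-count scaling. This SE is the widest among the 10 genes.

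In the non-oxidative branch the transferases that link pentoses to glycolysis rose, and the isomerase and the epimerase that act on ribulose 5-phosphate did not pass. Taldo1 encodes transaldolase, which moves a carbon unit with a keto group from sedoheptulose 7-phosphate to glyceraldehyde 3-phosphate. It lies on chromosome 7, 140972073 to 140982889, plus strand. It stood at 264, 339.9 and 337 CPM with IFN-γ and at 1015, 1024 and 1059 CPM with 4-OI. All libraries with 4-OI were above all those without, and again IFN-γ replicate 1 was the lowest. Taldo1 rose 3.29-fold, with a log2 fold change of 1.72 ± 0.12 (SE; edgeR adjusted p = 1.88e-05), and one of 1.59 without both libraries that stood apart.

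Tkt encodes transketolase, which uses thiamine pyrophosphate to pass on carbon pairs between sugar phosphates. Its locus is on chromosome 14, from 30271088 to 30296681, plus strand. Tkt stood at 336, 390.2 and 395 CPM with IFN-γ and at 499, 512 and 539 CPM with 4-OI, with no overlap. Tkt rose 1.38-fold, with a log2 fold change of 0.47 ± 0.09 (SE; edgeR adjusted p = 0.00455). With total-count scaling the call was lost (log2 fold change 0.21, adjusted p of 0.0649 by edgeR). Its relatives Tktl1 and Tktl2 had 6 and 13 counts over all 6 libraries and were not tested.

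Rpia encodes ribose 5-phosphate isomerase, which makes the ribose of nucleotides, and lies on chromosome 6, 70742704 to 70769159, minus strand. It stood at 30.1, 39.4 and 36.5 CPM with IFN-γ and at 37.0, 37.3 and 42.2 CPM with 4-OI. The groups overlapped, and the low IFN-γ value was that of replicate 1. Its log2 fold change was 0.14 ± 0.12 (SE; edgeR adjusted p = 0.377), and -0.12 with total-count scaling.

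Rpe encodes ribulose 5-phosphate 3-epimerase, which makes xylulose 5-phosphate, the donor for transketolase, and lies on chromosome 1, 66739957 to 66758964, plus strand. It stood at 64.1, 67.3 and 65.4 CPM with IFN-γ and at 61.4, 59.5 and 63.9 CPM with 4-OI. The groups just missed each other, and the difference was small. The log2 fold change was -0.09 ± 0.08 (SE; edgeR adjusted p = 0.361), -0.14 without both libraries that stood apart (edgeR adjusted p = 0.0229) and -0.35 with total-count scaling (edgeR adjusted p = 0.00719). Rpe shares 17.9% of its exon bases with Kansl1l on the opposite strand, and the strand setting of the counting is not given in the sources used here.

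**Figure D2:**
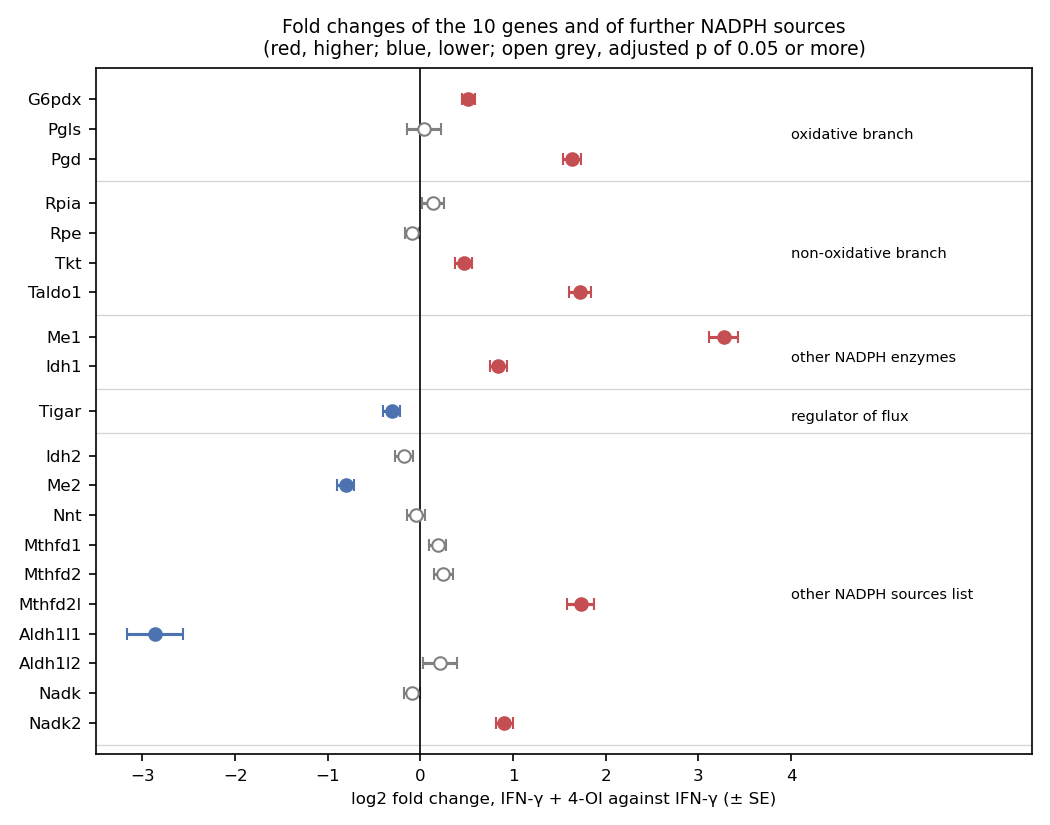
log2 fold change with SE from the edgeR fit for the 10 genes, by role, and for the 10 tested genes of a further list of NADPH sources; filled red points passed as higher, filled blue points as lower, and open grey points did not pass an adjusted p of 0.05. Me1 stands farthest to the right at 3.27, and Aldh1l1 farthest to the left at -2.86.

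To compare genes with one another, CPM were divided by the gene length in kilobases. On this length-scaled level Taldo1, Pgd and Tkt were the 3 most abundant of the 10 genes in both groups, in that order and with no overlap between neighbours. In the IFN-γ libraries Taldo1 stood at 246 ± 33.4, Pgd at 147 ± 11.1 and Tkt at 116 ± 10.2 CPM per kilobase. They were followed by G6pdx and Idh1, at 52.9 ± 0.885 and 50.6 ± 3.87, which overlapped with each other. Pgls came next at 30.5 ± 7.48, then Rpe at 20.9 ± 0.503 and Rpia at 19.9 ± 2.69, which overlapped, and last Tigar at 3.71 ± 0.127 and Me1 at 0.776 ± 0.136. With 4-OI no neighbours in the order overlapped: Idh1 stood at 90.7 ± 4.51 and G6pdx at 75.8 ± 1.94, Rpia at 21.9 ± 1.65 and Rpe at 19.6 ± 0.693, and Me1 at 7.46 ± 0.932 and Tigar at 3.00 ± 0.242. Idh1 was above G6pdx in IFN-γ replicates 2 and 3 as well (52.84 against 52.5 and 52.81 against 52.3) and below it in replicate 1, which stood apart (46.1 against 53.9). Rpia was likewise lowest in IFN-γ replicate 1, at 17.0 against 22.2 and 20.6. Me1 and Tigar, by contrast, were far apart in every IFN-γ library, with Me1 at 0.622 to 0.883 and Tigar at 3.62 to 3.85.

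Summed over the genes of a branch, both branches rose by about the same factor. The oxidative sum was 212, 246 and 234 CPM per kilobase in the IFN-γ libraries and 546, 559 and 589 with 4-OI, 2.45-fold as means. The non-oxidative sum was 349, 431 and 428 in the IFN-γ libraries and 990.3, 1001 and 1041 with 4-OI, 2.51-fold as means. The oxidative sum was 0.607, 0.570 and 0.547 of the non-oxidative one with IFN-γ, and 0.552, 0.559 and 0.566 with 4-OI. These ranges overlapped. Since the genes were chosen with earlier results of these data known, no test was made of the sums.

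Within each branch the genes moved unequally. The level of Pgd was 2.49, 2.95 and 2.90 times that of G6pdx in the IFN-γ libraries and 5.72, 5.91 and 6.52 times in those with 4-OI. The level of Taldo1 was 1.99, 2.20 and 2.15 times that of Tkt in the IFN-γ libraries and 5.14, 5.06 and 4.98 times in those with 4-OI. In both cases the ratios of the 2 groups were far apart. Pgd against Taldo1, by contrast, stood at 0.648, 0.582 and 0.575 with IFN-γ and at 0.555, 0.564 and 0.578 with 4-OI, ranges that overlapped. Together Pgd and Taldo1 made up 61.0% to 62.8% of the length-scaled level of both branches with IFN-γ and 80.3% to 80.5% with 4-OI.

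**Figure D3:**
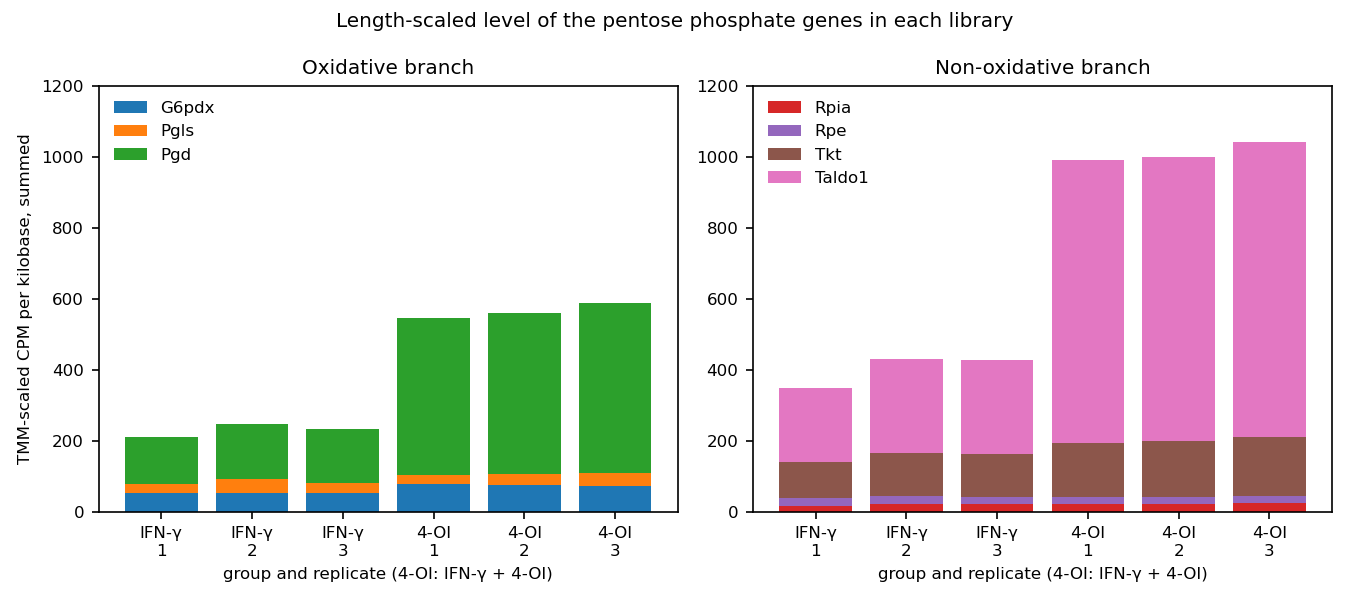
TMM-scaled CPM per kilobase in each library, stacked by gene, for the oxidative branch (left) and the non-oxidative branch (right), on a shared scale that starts at 0. Pgd and Taldo1 account for most of the added height in the 3 libraries with 4-OI.

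Outside the pathway, the NADPH producers Me1 and Idh1 rose. Me1 encodes cytosolic malic enzyme, which turns malate into pyruvate and makes NADPH. The gene covers 86463416 to 86577967 of chromosome 9, minus strand. Me1 had 76, 67 and 76 counts, or 3.01, 2.27 and 3.23 CPM, with IFN-γ, and 457, 713 and 756 counts, or 24.8, 25.8 and 31.1 CPM, with 4-OI. The lowest library with 4-OI was thus several times above the highest one without. Me1 rose 9.66-fold, with a log2 fold change of 3.27 ± 0.16 (SE; edgeR adjusted p = 3.87e-06), between 3.14 and 3.39 when single libraries were left out. Of the tested genes, 0.600% rose more. On the length-scaled level Me1 was the lowest of the 10 genes with IFN-γ and the ninth with 4-OI. Me1 shares 2.93% of its exon bases with A330041J22Rik on the opposite strand.

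Idh1 encodes the cytosolic and peroxisomal isocitrate dehydrogenase, which makes NADPH while turning isocitrate into 2-oxoglutarate. Its position is chromosome 1, 65197775 to 65225638, minus strand. Idh1 stood at 112, 129 and 129 CPM with IFN-γ and at 219.7, 211 and 233 CPM with 4-OI. The groups were well apart. Idh1 rose 1.79-fold, with a log2 fold change of 0.84 ± 0.09 (SE; edgeR adjusted p = 1.52e-04). Its length-scaled level was 56.0, 84.9 and 59.8 times that of Me1 in the IFN-γ libraries and 13.3, 12.2 and 11.2 times in those with 4-OI.

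Tigar encodes a fructose 2,6-bisphosphatase that slows glycolysis and thereby leaves sugar phosphate to the pentose pathway; it is a known p53 target. Tigar lies on chromosome 6, 127062079 to 127086564, minus strand. It stood at 25.01, 23.5 and 23.7 CPM with IFN-γ and at 20.7, 19.9 and 17.7 CPM with 4-OI, the only one of the 10 genes that passed as lower. The log2 fold change was -0.31 ± 0.09 (SE; edgeR adjusted p = 0.0250). The call was lost with no filter on low counts, at an adjusted p of 0.0597 by edgeR. Leaving out IFN-γ replicate 2 or 3, or 4-OI replicate 2 or 3, also ended it, at adjusted p of 0.0593 to 0.0789 by edgeR.

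Other genes of ribose and pentose metabolism did not move together. On this list 8 genes were tested, of which 2 passed as higher and 4 as lower. Over all tested genes those shares were 22.7% and 25.4%. The median log2 fold change of the list was -0.32. H6pd, which carries out the first oxidative steps inside the endoplasmic reticulum, rose from 25.6 ± 3.85 to 57.6 ± 6.61 CPM, by 1.17 ± 0.14 (SE) on the log2 scale (edgeR adjusted p = 2.60e-04). Prps2, a phosphoribosyl pyrophosphate synthetase that takes ribose 5-phosphate towards nucleotides, fell from 27.0 ± 2.44 to 18.5 ± 0.712 CPM, and Shpk, the sedoheptulose kinase, from 9.51 ± 0.301 to 6.13 ± 0.667 CPM (edgeR adjusted p = 0.00231 and 0.00206). Prps1 and Pgm2 also fell, with log2 values of -0.53 and -0.39 and adjusted p of 0.00626 and 0.00328 by edgeR. The second rise was that of Rbks, ribokinase, at 0.41 (edgeR adjusted p = 0.0432), a call that 12 of 15 alternative settings did not keep. Rbks, Prps1 and Pgm2 were named after their values were seen.

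On the list of further NADPH sources, which includes related enzymes, genes went both ways. Among 10 tested genes 2 rose, 2 fell and 6 did not pass, the median being 0.07, and Me3 had 0 counts in every library. Of all tested genes 22.7% rose and 25.4% fell. Nadk2, the mitochondrial NAD kinase that supplies NADP+, rose from 26.5 ± 1.55 to 49.7 ± 2.71 CPM (edgeR adjusted p = 9.83e-05), and Mthfd2l, a mitochondrial folate dehydrogenase, from 2.62 ± 0.358 to 8.65 ± 0.769 CPM (edgeR adjusted p = 4.55e-05). Me2, a mitochondrial malic enzyme that works chiefly with NAD+, fell from 59.7 ± 3.74 to 34.0 ± 2.004 CPM, or 1.75-fold (edgeR adjusted p = 1.95e-04). The cytosolic Me1, which makes NADPH, rose. Aldh1l1, a cytosolic folate dehydrogenase, fell from 6.41 ± 0.173 to 0.844 ± 0.492 CPM, or 7.28-fold (edgeR adjusted p = 1.62e-04).

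The genes that did not pass on this list were Idh2, the mitochondrial counterpart of Idh1, Nnt, the transhydrogenase of the inner mitochondrial membrane, the folate enzymes Mthfd1, Mthfd2 and Aldh1l2, and the cytosolic NAD kinase Nadk. Their log2 fold changes were -0.18, -0.05, 0.19, 0.25, 0.21 and -0.09 (edgeR adjusted p = 0.160, 0.722, 0.127, 0.0847, 0.379 and 0.437). With the pair of libraries that stood apart left out, 5 genes of the list passed as higher and 3 as lower. Mthfd1, Mthfd2 and Aldh1l2 joined the former at 0.23, 0.12 and 0.51, and Idh2 the latter at -0.29 (edgeR adjusted p = 0.0211, 0.0221, 2.87e-04 and 8.71e-05). Calls rose in general in that fit, with 4601 of 14086 tested genes higher and 4695 lower. When IFN-γ replicate 1 alone was dropped, Aldh1l2 passed at 0.41 and Idh2 at -0.27 (edgeR adjusted p = 0.0339 and 0.00744). With total-count scaling 5 genes passed as lower, Idh2, Nnt and Nadk among them, as did 5452 of 14011 tested genes.

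Enzymes that use NADPH also went both ways. Of 13 tested genes 7 passed as higher (background 22.7%) and 4 as lower (background 25.4%), and their median was 0.61. Nqo1, a quinone reductase, rose from 26.3 ± 2.93 to 178 ± 4.85 CPM, Txnrd1, cytosolic thioredoxin reductase, from 174 ± 10.2 to 815 ± 12.3 CPM and Blvrb, biliverdin reductase B, from 102 ± 20.3 to 511 ± 26.3 CPM (edgeR adjusted p = 1.96e-06, 2.17e-06 and 1.52e-05). The others that rose were Gsr, the glutathione reductase, the carbonyl reductases Cbr1 and Cbr3, and Por, with log2 fold changes of 1.18, 0.69, 2.73 and 0.61. Among those that fell were Fasn, of fatty acid synthesis, and Dhcr7, of sterol synthesis, at -1.17 and -0.58. Apart from Nqo1, Txnrd1 and Blvrb these genes were named after their values were seen.

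Genes of glucose uptake and upper glycolysis, which supply or compete for glucose 6-phosphate, were lower in 7 and higher in 1 of 15 tested cases. The background was 25.4% lower and 22.7% higher. The median of the list was -0.19. Slc2a3, a glucose transporter, fell from 46.7 ± 2.02 to 16.5 ± 0.998 CPM (edgeR adjusted p = 8.52e-06). Of the phosphofructokinase genes, Pfkp fell from 369.8 ± 27.2 to 182 ± 16.4 CPM and Pfkm from 15.1 ± 0.514 to 9.15 ± 0.192 CPM (edgeR adjusted p = 1.12e-04 and 2.81e-04). Pfkl did not pass, at 167 ± 10.9 CPM with IFN-γ and 170 ± 10.3 CPM with 4-OI (edgeR adjusted p = 0.809). Neither did the glucose transporter Slc2a1, at 403 ± 13.9 and 453 ± 24.7 CPM (edgeR adjusted p = 0.132). Pfkl and Slc2a1 were named after their values were seen. The gene that rose, named after its value was seen, was Aldoa, by 0.44 on the log2 scale (edgeR adjusted p = 0.0264). No gene of the list passed as higher with total-count scaling or without 4-OI replicate 2, and 3 did without the pair of libraries that stood apart. Over all tested genes 1719, 2460 and 4601 passed as higher in these fits, against 3181 in the main fit.

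**Figure D4:**
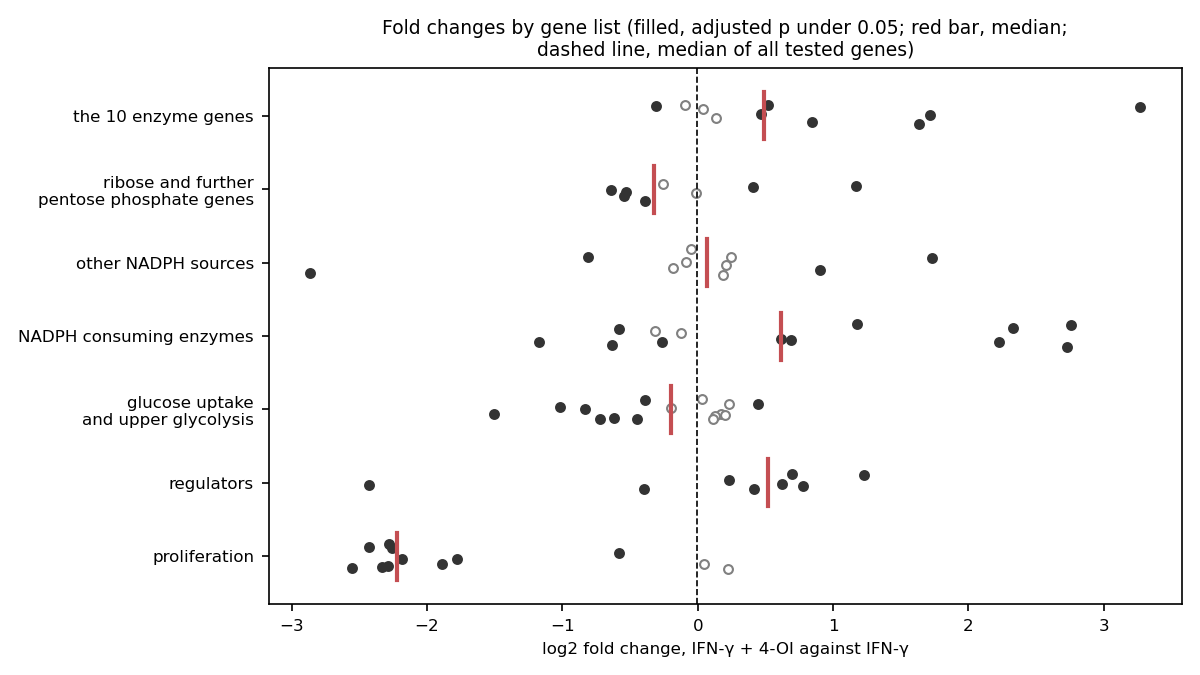
log2 fold change of each tested gene, by list; filled points passed an adjusted p of 0.05, the red bar is the median of a list and the dashed line that of all tested genes. The 10 enzyme genes and the NADPH consuming enzymes have medians of 0.49 and 0.61, and proliferation genes one of -2.22.

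All 8 genes on the list of regulators passed, against 48.1% of all tested genes. Of the 8, 6 were higher (background 22.7%) and 2 lower (background 25.4%), and their median was 0.52. Nfe2l2, the gene of NRF2, rose 1.54-fold from 227 ± 9.87 CPM, Mafg, a small MAF partner, 2.34-fold from 126 ± 3.43 CPM, and Bach1, a repressor at the same elements, 1.71-fold from 55.4 ± 7.98 CPM (edgeR adjusted p = 5.24e-04, 9.40e-06 and 8.33e-04). Keap1 rose by 0.23 on the log2 scale (edgeR adjusted p = 0.0360). That value was -0.024 with total-count scaling, and the call was lost with upper quartile factors and with no filter (edgeR adjusted p = 0.0536 and 0.0969), with the replicate block (0.0567) and without IFN-γ replicate 2 or 3 or 4-OI replicate 1 or 2 (0.0649 to 0.123). Trp53, the gene of p53, rose 1.62-fold and Hif1a 1.34-fold (edgeR adjusted p = 3.08e-04 and 0.00752), the latter not called with total-count scaling. Srebf1, of lipid synthesis, and Myc fell 1.32-fold and 5.40-fold (edgeR adjusted p = 0.00634 and 2.31e-06).

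Genes of proliferation, a process that draws on ribose, fell in 10 of 12 tested cases, against 25.4% of all tested genes. No gene of the list passed as higher, and the median was -2.22. Ccna2, Ccnb1 and Cdc20 of the cell cycle fell 4.89-fold, 5.38-fold and 5.88-fold (edgeR adjusted p = 2.17e-06, 2.31e-06 and 2.38e-06). Among genes of DNA replication, named after their values were seen, Pcna and Mcm2 did not pass, at 0.23 and 0.05. Mcm5, Rrm2 and Tyms of the same list fell, at -1.89, -2.28 and -0.58 on the log2 scale.

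Markers of several cell types moved with 4-OI as well, and their part in the values above was not tested. Of all tested genes 22.7% rose and 25.4% fell. In the IFN-γ libraries the markers of conventional dendritic cells summed to 4956 to 5829 CPM and those of macrophages to 2135 to 2217 CPM. None of either list was at 0 in all libraries. The lists differ in length, and the first includes the antigen presentation genes Cd74, H2-Ab1 and Ciita, so these sums do not rank the cell types. Of 10 markers of conventional dendritic cells 6 fell and 1 rose, to a sum of 4113 to 4915 CPM with 4-OI. Of 7 macrophage markers 3 rose and 1 fell, to 2752 to 2890 CPM. Of 5 monocyte markers 4 fell, from 1655 to 2165 CPM down to 849 to 957 CPM, and of 8 neutrophil markers 2 rose and 5 fell, from 1609 to 2331 CPM to 1967 to 2691 CPM. Mast cell and basophil markers fell in 5 of 5 tested cases, from 189 to 198 CPM down to 62.1 to 70.4 CPM, with Mcpt4 at 0 in every library. The 4 markers of B cells summed to at most 7.64 CPM in any library, the erythroid ones to at most 1.23 CPM and those of T and NK cells to at most 2.76 CPM. Stromal markers reached 26.6 CPM in IFN-γ replicate 1 and at most 1.19 CPM with 4-OI. In bulk RNA, a smaller number of cells of a type and less RNA per cell cannot be told apart.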

How the data were processed

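The authors deposited 1 table per library with raw counts, TPM and FPKM per gene, per the file headers. The deposited TPM and FPKM follow from the counts and lengths to within 1e-06 (relative) for 100% of values, and only the counts were used. The labels' protocols name a stranded mRNA kit, and HISAT2 and mm10 are listed in the submitters' processing notes. Which program counted the reads, with which annotation and strand setting, is not given in the sources used here. Of 35268 genes matched by symbol to RefSeq on GRCm38.p6, the start or end was the same for 827, and the span from start to end for 23418. Coordinates of genes are those of the deposited tables and lie on a different assembly from the promoter windows. Which assembly that is was not determined. Promoter sequences come from RefSeq on GRCm38.p6, matched by symbol for all 10 genes.

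Counts were compared across all genes with edgeR 4.0.16 in R 4.3.3: filterByExpr with its minimum count of 10, TMM factors and the robust quasi-likelihood test, two-sided, with Benjamini-Hochberg adjustment over 14011 genes at 0.05. Replicates differed by more than counting noise (lowest chi-square per gene 4.29). The script was tested on simulated data. Alternatives were other scaling factors, other filters, DESeq2 1.42.0, limma-voom (limma 3.58.1), the replicate block and leaving out single libraries; leaving out both libraries that stood apart was chosen after seeing the data. The members and lists were chosen with earlier results of these data known. Genes named are the 10 members, all tested genes among other NADPH sources and regulators, and the 3 genes with the smallest adjusted p of each other list; exceptions are marked, and single values of some genes of the NADPH consuming list are not reported here. Reads that these genes may share with near-identical copies were not measured.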

Additional observations from a re-analysis of the deposited data

How the results depend on the processing

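Of 150 values of the 10 genes under 15 alternative settings, 136 kept both direction and call. The rises of Me1, Taldo1, Pgd, Idh1 and G6pdx were called in all 15, with log2 fold changes of 3.01 to 3.39, 1.46 to 1.79, 1.38 to 1.69, 0.58 to 0.89 and 0.26 to 0.55, and the lowest value of each came from total-count scaling. Tkt lost its call with that scaling. Pgls changed sign with total-count scaling (-0.22), when IFN-γ replicate 1 or 4-OI replicate 3 was dropped (-0.13 to 0.24 over single libraries) and when both were (-0.24). Rpia did so with total-count scaling (-0.12) and when both were dropped (-0.033). None of these passed. Among other named genes, total-count scaling turned Mthfd1 (-0.073), Mthfd2 (-0.012), Aldh1l2 (-0.049) and Keap1 (-0.024), and Nnt ranged from -0.11 to 0.018 without single libraries, positive without 4-OI replicate 2.

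Total-count scaling called 1719 genes higher and 5452 lower against 3181 and 3555, a share of higher calls of 23.97% against 47.2%, in a fit where the median gene stood at -0.27. Of the 10 genes, 2 were called lower with that scaling and with both libraries dropped, 0 with no filter, and 0 to 1 without single libraries, against 1. The cause was not tested. On the list of ribose genes 1 in place of 2 rose under 12 settings. Among glycolysis genes 0 to 3 rose against 1.

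No label says that replicate numbers pair the libraries, and deviations of same-numbered libraries correlated at 0.26, -0.10 and 0.19. Those of differently numbered libraries correlated at -0.34 to 0.31, a range that holds all of these values. With the replicate block 7513 genes were called against 6736, the same 7 of the 10 genes among them; Mthfd2 gained and Keap1 and Rbks lost a call. Between 5275 and 7835 genes were called without single libraries. Depth limits Me1 with IFN-γ, at 67 to 76 counts per library, and Aldh1l1 with 4-OI, at 0.543 to 1.41 CPM.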
